A study of Homo sapiens with 6 samples.

Results

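The genes described here encode the integrin subunits that take part in recognition of the Arg-Gly-Asp (RGD) sequence. They were taken by gene symbol and not by any measured value: ITGAV, ITGA5, ITGA8, ITGB1, ITGB3, ITGB5, ITGB6 and ITGB8, 8 of the 21293 genes in the expression table. Bulk RNA-seq had been done on H2087-LCC cells, a latency competent population of lung adenocarcinoma (LUAD) cells obtained by selection in mice from the stage I line H2087. There were 3 groups of 2 libraries. The SB cells were kept for 3 days with SB505124, which blocks the TGFβ type I receptor and so silences TGFβ made by the culture itself. The other groups received TGFβ, for 3 days or for 7 days. No group was left untreated, so in comparisons with SB the effects of added TGFβ and of the inhibitor cannot be told apart. All 6 libraries came from 1 cell line, and the study describes the 2 libraries of a group as technical replicates, so the SDs and p-values below may measure only technical spread. SB was collected at 3 days only. Where the 7 day group is set against SB, TGFβ and a longer time in culture therefore cannot be told apart. Against the 3 day group, a longer TGFβ treatment and a longer time in culture cannot be told apart either. In bulk RNA, a change in the RNA per cell and a change in the share of cells that make it cannot be told apart.

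Integrins are heterodimers of an α and a β subunit that bridge the extracellular matrix and the actin cytoskeleton. αv pairs with β1, β3, β5, β6 or β8, whereas α5 and α8 pair with β1, and all of these receptors dock on a short RGD loop of their ligands. α5β1 is the classical fibronectin receptor, αvβ3 and αvβ5 bind vitronectin and other matrix proteins, and αvβ6 and αvβ8 are known above all for binding the RGD loop in the latency peptides of TGFβ1 and TGFβ3, through which latent TGFβ is activated. β6 is largely restricted to epithelium.

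The RGD loops are shown because they are what every receptor of this family binds. In the coding sequences of the GENCODE annotation on GRCh37, RGD codons were found in 13 of the 13 ligand genes listed for this report. These genes were listed as known RGD ligands, so that count follows from their choice. Over all 18922 coding sequences searched, 8.1% held RGD codons. The 4 stretches below are 39 bases each, read on the coding strand, with the RGD codons in capitals. The FN1 site is at chr2:216248771-216248809 (minus strand, exon 30 of 46), the TGFB1 site at chr19:41847895-41847933 (minus strand, exon 5 of 7), the TGFB3 site at chr14:76429781-76429819 (minus strand, exon 5 of 7) and the SPP1 site at chr4:88902870-88902908 (plus strand, exon 6 of 7). TGFB2, whose latency peptide is known to lack the loop, had 0 RGD codons.
FN1: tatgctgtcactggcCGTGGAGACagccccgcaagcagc
TGFB1: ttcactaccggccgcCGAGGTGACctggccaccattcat
TGFB3: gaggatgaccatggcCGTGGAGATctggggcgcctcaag
SPP1: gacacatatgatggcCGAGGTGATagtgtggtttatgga

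The cytoplasmic tails are shown because the β subunits differ there in how they can reach actin. The NPxY motif is a docking site of talin. Only this motif was searched for. Related sites without the proline are left in lower case, so the matches do not count all docking sites. The last 40 codons (120 bases, stop codon left out) are printed with codons that match the NPxY motif in capitals. The β1 tail held 2 matches, those of β3, β5 and β6 held 1 each, and that of β8 held 0. The sequences lie at chr10:33190501-33197352 (ITGB1, minus strand, exons 15 and 16 of 16), chr17:45384947-45387567 (ITGB3, plus strand, exons 14 and 15 of 15), chr2:160958250-160964213 (ITGB6, minus strand, exons 14 and 15 of 15) and chr7:20449498-20449617 (ITGB8, plus strand, exon 14 of 14).
ITGB1: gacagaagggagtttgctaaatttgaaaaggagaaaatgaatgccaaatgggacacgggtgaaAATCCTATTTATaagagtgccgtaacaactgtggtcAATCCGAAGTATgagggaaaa
ITGB3: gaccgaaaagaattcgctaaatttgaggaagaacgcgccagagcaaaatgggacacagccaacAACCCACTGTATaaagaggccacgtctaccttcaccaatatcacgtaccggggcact
ITGB6: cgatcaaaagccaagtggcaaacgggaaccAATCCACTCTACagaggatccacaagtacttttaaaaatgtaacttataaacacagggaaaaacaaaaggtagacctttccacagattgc
ITGB8: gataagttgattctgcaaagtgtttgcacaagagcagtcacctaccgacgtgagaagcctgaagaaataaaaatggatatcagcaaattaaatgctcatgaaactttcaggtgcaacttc

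In both TGFβ groups, 5 of the 8 genes were expressed above SB: the fibronectin receptor pair ITGA5 and ITGB1, the common partner ITGAV, and the β subunits ITGB3 and ITGB6. The other 3 each behaved in their own way. ITGB5 was not called in any comparison, ITGB8 was low after 3 days of TGFβ and back near its SB level after 7 days, and ITGA8 was listed at 0 in all 6 libraries. Levels are given as the deposited normalized counts, library by library, and differences as log2 fold changes on the log2(normalized count + 1) scale from limma, with p-values adjusted by Benjamini-Hochberg over the 14395 genes whose mean over all libraries was 10 or more.

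**Figure D1:**
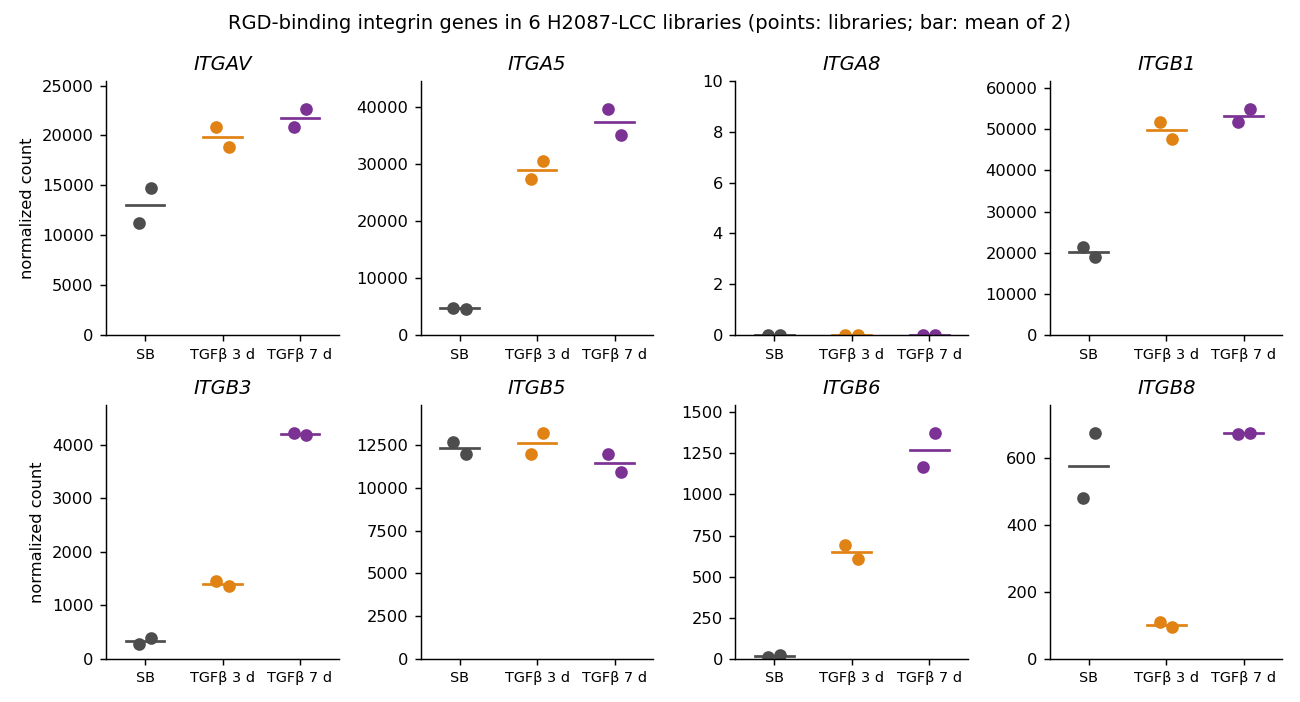
Normalized counts (vertical axis, linear and starting at 0, with its own range in each panel) of the 8 genes in the SB, TGFβ 3 d and TGFβ 7 d groups. Points are libraries and bars are means of 2 libraries. ITGB6 is between 13 and 22 in SB and between 1165 and 1374 at 7 days, ITGB8 is lowest at 3 days, and ITGA8 is at 0 throughout.

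Among the α subunits, ITGA5 (chromosome 12, 54789045 to 54813050, minus strand) changed most. It had 4799 and 4547 normalized counts in SB, 27317 and 30528 after 3 days of TGFβ, and 39579 and 35111 after 7 days. The groups did not overlap. After 3 days ITGA5 had risen by 2.63 ± 0.09 on the log2 scale (SE, n = 2 against 2, adjusted p = 2.55e-09), and after 7 days by 3.00 ± 0.09 (adjusted p = 2.83e-10). The further step from 3 to 7 days was 0.37 ± 0.09 (adjusted p = 0.00911). That smaller step was not past the threshold when TGFβ 3 d library 1 (0.29, adjusted p = 0.0931) or TGFβ 7 d library 1 (0.28, adjusted p = 0.125) was left out, nor with every gene kept (adjusted p = 0.0536) or with limma's variance trend switched off (adjusted p = 0.0678).

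ITGAV (chromosome 2, 187454737 to 187545628, plus strand), the α subunit shared by the β3, β5, β6 and β8 receptors, had 11277 and 14771 normalized counts in SB, 20850 and 18847 at 3 days and 20893 and 22621 at 7 days. Both TGFβ groups were above both SB libraries, and the 2 SB libraries differed more from each other than those of either TGFβ group. The log2 fold change was 0.62 ± 0.12 at 3 days (95% interval 0.37 to 0.87, adjusted p = 0.00178) and 0.75 ± 0.12 at 7 days (adjusted p = 0.000192). From 3 to 7 days the difference was 0.13, with an interval of -0.12 to 0.39 (adjusted p = 0.403).

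ITGA8 (chromosome 10, 15555953 to 15761921, minus strand), a partner of β1 best known from mesenchyme, was listed at 0 in each of the 6 libraries and could not be tested. ITGA2B, the platelet RGD receptor subunit and no member of the set, was listed at 8 and 9, at 6 and 5, and at 16 and 12 normalized counts in SB, 3 days and 7 days, below the filter.

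ITGB1 (chromosome 10, 33176201 to 33294720, minus strand), the most widely shared β subunit, had 21386 and 18868 normalized counts in SB, 51900 and 47743 at 3 days and 51760 and 54880 at 7 days. All 4 TGFβ libraries were above SB, and the ranges of the 3 and 7 day groups overlapped. ITGB1 was higher by 1.31 ± 0.09 on the log2 scale after 3 days (adjusted p = 5.88e-07), and after 7 days by 1.41 ± 0.09 (adjusted p = 1.23e-07). Between the TGFβ groups it was 0.10, with an interval of -0.09 to 0.29 (adjusted p = 0.417).

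ITGB3 (chromosome 17, 45331193 to 45391109, plus strand), which with αv forms the vitronectin receptor, rose in 2 steps. It had 272 and 386 normalized counts in SB, 1452 and 1360 at 3 days, and 4225 and 4184 at 7 days, with no overlap between any of the groups. Against SB the log2 difference came to 2.11 ± 0.14 after 3 days (adjusted p = 6.02e-07), and after 7 days to 3.69 ± 0.14 (adjusted p = 2.27e-09). The step from 3 to 7 days was 1.58 ± 0.14 (adjusted p = 2.56e-05), a 2.99-fold increase. This is a change in RNA. The study saw at most a small rise of integrin β3 protein between these times.

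ITGB6 (chromosome 2, 160956178 to 161056824, minus strand), the epithelial partner of αv in the latent TGFβ receptor, showed the largest increase of the set. It was low in SB, at 13 and 22 normalized counts, and stood at 693 and 607 after 3 days and at 1165 and 1374 after 7 days. The groups were well apart. This was a 36.2-fold increase at 3 days (log2 fold change 5.18 ± 0.21, 95% interval 4.71 to 5.65, adjusted p = 1.00e-08) and a 70.6-fold increase at 7 days (6.14 ± 0.21, adjusted p = 1.05e-09). The step from 3 to 7 days was 0.96 ± 0.21 (adjusted p = 0.00577). That step missed the threshold with every gene kept (adjusted p = 0.0632) and when TGFβ 7 d library 2 was left out (0.84, adjusted p = 0.0660).

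ITGB8 (chromosome 7, 20370325 to 20455377, plus strand), whose product with αv also binds latent TGFβ and whose tail carries no NPxY motif, went the other way at 3 days. It had 481 and 675 normalized counts in SB, 110 and 95 at 3 days, and 674 and 676 at 7 days. The 3 day libraries lay below all the others, and the 7 day libraries lay at the level of the higher SB library. After 3 days ITGB8 fell by 2.47 in log2 terms (SE 0.17, adjusted p = 7.15e-07) and rose by 2.71 ± 0.17 from 3 to 7 days (adjusted p = 2.32e-06). At 7 days against SB the difference was 0.24, with an interval of -0.13 to 0.62 (adjusted p = 0.244). It depended on which SB library was used, with a value of 0.49 (adjusted p = 0.0279) when SB library 2 was left out and of -1.58e-06 when SB library 1 was left out.

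ITGB5 (chromosome 3, 124480795 to 124620265, minus strand), the other vitronectin-binding partner of αv, had 12712 and 11989 normalized counts in SB, 12003 and 13231 at 3 days and 11998 and 10916 at 7 days. The SB range overlapped those of both TGFβ groups, and the lowest 3 day value lay just above the highest 7 day value. The log2 fold changes were 0.03 at 3 days (interval -0.16 to 0.22, adjusted p = 0.832), -0.11 at 7 days (interval -0.30 to 0.08, adjusted p = 0.304) and -0.14 from 3 to 7 days (interval -0.33 to 0.05, adjusted p = 0.239). At both times the interval against SB lay below those of ITGB1, ITGB3 and ITGB6.

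Counted over the 7 genes that could be tested, 6 were called after 3 days of TGFβ, 5 higher and 1 lower. In the same comparison 29.0% of all genes tested were called, 14.9% higher and 14.0% lower, and the median log2 fold change was 1.31 for the 7 genes and -0.02 for all genes. After 7 days, 5 of the 7 were called, each of them higher, with a median of 1.41, where 54.5% of all genes were called, 27.7% higher and 26.9% lower. Between 7 and 3 days, 4 of the 7 were called, each of them higher, with a median of 0.37, where 33.2% of all genes were called, 17.0% higher and 16.2% lower. With every gene kept, 2 of the 7 (ITGB3 and ITGB8) were called between 7 and 3 days. The comparisons with SB use the same 2 SB libraries and are therefore not independent of each other. With library totals made equal, the split over all genes at 3 days was 1819 higher and 2552 lower, in place of 2149 and 2021, and 6 of the 7 integrin genes were still called.

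**Figure D2:**
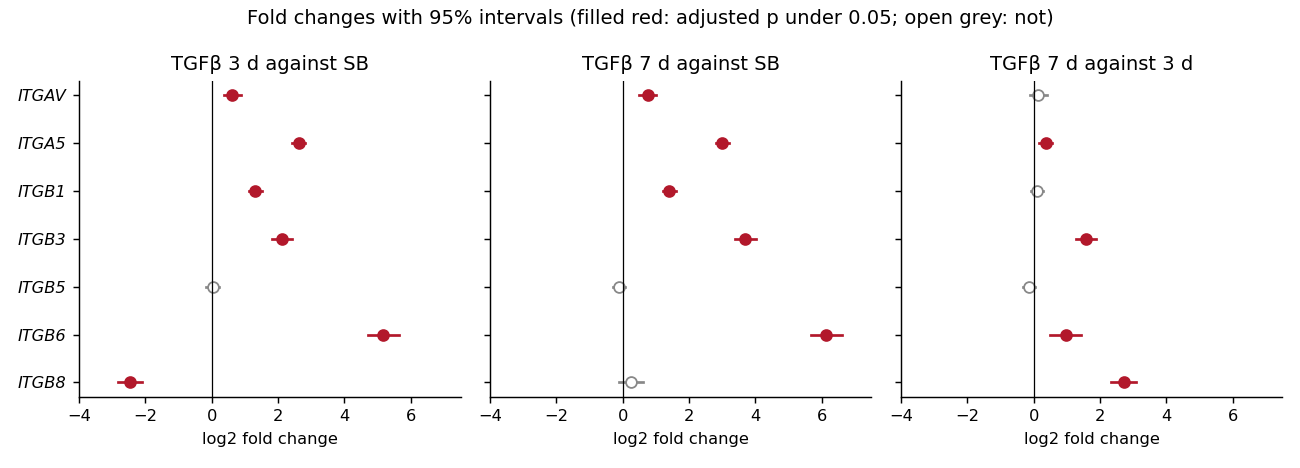
Log2 fold changes (horizontal axis) of the 7 tested genes in the 3 comparisons, with 95% intervals from limma. Filled red points passed an adjusted p of 0.05 and open grey points did not. ITGB6 lies at 5.18 and 6.14 against SB, ITGB5 lies near 0 in all 3 panels, and ITGB8 moves from -2.47 at 3 days to 2.71 between 7 and 3 days.

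To compare the genes with each other, normalized counts were divided by the length of the MANE Select transcript in kb. On this scale the order of the levels in SB was ITGB1 (5389 ± 477 per kb, SD, n = 2), ITGB5 (2782 ± 115), ITGAV (1850 ± 351), ITGA5 (1100 ± 41.9), ITGB8 (64.4 ± 15.3), ITGB3 (55.4 ± 13.6) and ITGB6 (3.77 ± 1.37). ITGB8 and ITGB3 overlapped in SB, and all other neighbours in that order were apart. On the same scale ITGB1 was also first in both TGFβ groups, at 13339 ± 787 and 14276 ± 591 per kb. ITGA5 moved from the fourth to the second place, at 6805 ± 534 per kb after 3 days and 8787 ± 743 after 7 days. ITGB5 and ITGAV followed with overlapping ranges at 3 days, at 2842 ± 196 and 2820 ± 201 per kb. At 7 days ITGAV (3091 ± 174) stood above ITGB5 (2580 ± 172). ITGB3 and ITGB6 passed ITGB8 after 3 days, with 237 ± 10.9, 140 ± 13.1 and 11.4 ± 1.18 per kb, and kept that order after 7 days, with 708 ± 4.88, 274 ± 31.8 and 75.2 ± 0.158 per kb. The order depends on the length used. With the length of all annotated exons in place of the MANE Select transcript, a choice made after seeing the data, ITGB5 (1896 ± 78.5 per kb) stood above ITGB1 (1382 ± 122) in SB, and ITGA5 (3917 ± 308 and 5058 ± 428) stood above ITGB1 (3422 ± 202 and 3662 ± 152) in both TGFβ groups. ITGB5 (1759 ± 117) was then above ITGAV (1125 ± 63.2) at 7 days, while ITGB3, ITGB6 and ITGB8 followed in that order in both TGFβ groups.

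The balance of the α subunits turned over as well. The ratio of ITGA5 to ITGAV per kb was 0.705 and 0.510 in the SB libraries, 2.17 and 2.68 at 3 days, and 3.14 and 2.57 at 7 days. On this scale ITGAV was the higher of the pair in SB and ITGA5 in all 4 TGFβ libraries, and the TGFβ groups overlapped with each other. With the length of all annotated exons the ratio was 1.11 and 0.806 in SB and at least 3.43 in every TGFβ library, so the order of the pair in SB is not fixed, whereas the TGFβ libraries were above SB either way.

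Within the 5 β subunits that pair with αv, ITGB1 made up 65.9% and 64.0% of the summed level per kb in SB, 81.7% and 79.2% at 3 days, and 78.7% and 80.6% at 7 days. The share of ITGB5 moved the opposite way, from 32.9% and 34.2% in SB to 15.9% and 18.5% at 3 days and 15.4% and 13.5% at 7 days, while its level did not pass the test. With the length of all annotated exons the mean shares in SB, 3 days and 7 days were 41.0%, 60.2% and 58.1% for ITGB1 and 56.3%, 34.1% and 27.9% for ITGB5, so ITGB5 was then the larger of them in SB. ITGB3, ITGB6 and ITGB8 together stayed below ITGB5 in every library. These shares are descriptions, since an exact permutation test of 2 against 2 libraries cannot go below p = 0.33, and they are shares of transcript, not of receptor.

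With ITGB1 set aside, the remaining 4 β subunits were mostly ITGB5 in SB, at 96.6% and 94.9%. ITGB5 was at 86.9% and 88.9% at 3 days and at 72.3% and 69.6% at 7 days. ITGB3 filled most of the difference, with 1.54% and 2.28% in SB, 7.86% and 6.83% at 3 days and 19.0% and 19.9% at 7 days. ITGB6 had 0.0945% and 0.167% in SB, 4.80% and 3.90% at 3 days and 6.71% and 8.38% at 7 days. For ITGB8 the shares were 1.81% and 2.64% in SB, 0.394% and 0.316% at 3 days, and 2.01% and 2.13% at 7 days. The pair known for binding latent TGFβ thus changed its order: ITGB8 was above ITGB6 in both SB libraries and below it in all 4 TGFβ libraries.

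**Figure D3:**
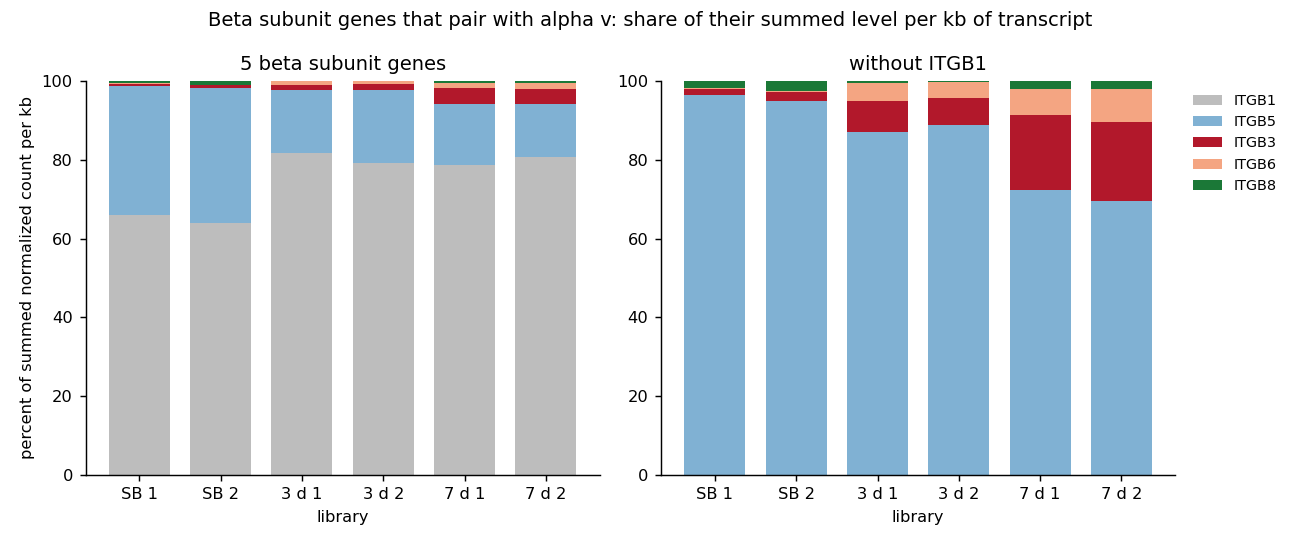
Percent of the summed normalized count per kb (vertical axis, from 0 to 100) in each of the 6 libraries, for the 5 β subunit genes that pair with αv (left) and for the 4 that remain without ITGB1 (right). In the right panel ITGB5 covers 96.6% and 94.9% in SB and 72.3% and 69.6% at 7 days, and ITGB3 covers 19.0% and 19.9% at 7 days.

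The promoter windows of ITGB6 and ITGA5, the β and α subunit with the largest increases, are shown for comparison. The RefSeq table (GRCh38.p14) matched 7 of the 8 genes, all but ITGB3, and the windows were placed on GRCh37 by exact match. Each is 250 bases upstream of the start site on the strand of the gene, and matches of 4 motifs on either strand are in capitals. The motifs were the AP-1 site TGANTCA, present in 6.6% of all 27305 promoter windows of this length, the SMAD box CAGAC (37.8%), the E-box CACCTG bound by SNAI and ZEB factors (17.5%) and the GC box GGGCGG (42.3%). ITGB6 (chr2:161056784-161057033, minus strand) had 30.0% GC, a value that 1.6% of the windows fell below, with 1 E-box 70 bases upstream of the start and no match to the other motifs. ITGA5 (chr12:54813051-54813300, minus strand) had 70.0% GC, with 1 SMAD box and 1 GC box. The windows at the MANE Select starts of ITGA8 (68.0%), ITGAV (70.8%), ITGB8 (71.2%), ITGB5 (75.2%) and ITGB1 (78.4%) were also well above ITGB6 in GC. ITGAV and ITGB1 each had a second window, at 40.8% and 41.6% GC, and ITGB5 had others at 52.8% and 56.4%. A match is a run of letters, and binding was not measured.
ITGB6: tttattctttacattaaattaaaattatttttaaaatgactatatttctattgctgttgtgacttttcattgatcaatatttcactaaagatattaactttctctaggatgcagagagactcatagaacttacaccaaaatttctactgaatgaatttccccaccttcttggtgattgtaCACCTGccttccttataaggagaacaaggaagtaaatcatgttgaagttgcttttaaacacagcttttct
ITGA5: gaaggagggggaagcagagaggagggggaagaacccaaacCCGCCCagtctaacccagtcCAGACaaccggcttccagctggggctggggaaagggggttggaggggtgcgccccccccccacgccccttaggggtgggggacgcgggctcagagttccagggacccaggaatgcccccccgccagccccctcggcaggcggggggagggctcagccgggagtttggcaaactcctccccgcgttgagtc

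Most of the RGD ligands were also higher with TGFβ. Of 13 ligand genes listed, 9 could be tested. At 3 days 6 of the 9 rose and 1 fell, and at 7 days 8 rose and 1 fell, with medians of 1.10 and 1.30 against -0.02 and near 0 over all genes. From 3 to 7 days 5 rose and 1 fell. The ligands called were 77.8% at 3 days, all 9 at 7 days and 66.7% in the later step, against 29.0%, 54.5% and 33.2% of all genes. FN1, the fibronectin ligand of α5β1, had 162290 and 175381 normalized counts in SB, 358867 and 364251 at 3 days and 558569 and 545523 at 7 days. It rose by 1.10 at 3 days, by 1.71 at 7 days (adjusted p = 1.77e-08) and by 0.61 between them (adjusted p = 0.000359), and the groups did not overlap. FBN1, which encodes fibrillin-1, rose by 1.22 and 1.60 at the 2 times. SPP1, the osteopontin gene, started low, at 43 and 29 in SB, and had 252 and 234 at 3 days and 346 and 345 at 7 days. Against SB it was higher by 2.75 at 3 days and by 3.25 at 7 days on the log2 scale. The step of SPP1 from 3 to 7 days was 0.51 and was not called (limma adjusted p = 0.0744). The gene that fell was TNC, tenascin C, chosen for mention after its values were seen, by 0.48 at 3 days and 0.89 at 7 days. VTN, whose protein vitronectin is the ligand of αvβ3 and αvβ5, was listed at 4 or fewer in every library.

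The genes of latent TGFβ, the cargo of αvβ6 and αvβ8, split by isoform. Of 6 tested, 3 rose and 2 fell at 3 days, 4 rose and 2 fell at 7 days, and 3 rose and 1 fell between 7 and 3 days, which is 83.3%, all 6 and 66.7% of them, against 29.0%, 54.5% and 33.2% of all genes. TGFB1, whose latency peptide has the RGD loop shown above, had 431 and 481 normalized counts in SB, 1381 and 1775 at 3 days and 2595 and 2153 at 7 days. It rose by 1.78 at 3 days and by 2.37 at 7 days (adjusted p = 6.66e-08). TGFB2, the isoform with no RGD codons, had 872 and 834 in SB, 261 and 211 at 3 days and 98 and 128 at 7 days. It fell by 1.86 at 3 days and by 2.92 at 7 days (adjusted p = 6.89e-08), with no overlap between groups. LTBP3, which anchors latent TGFβ in the matrix, had 1035 and 2126 in SB, 851 and 1133 at 3 days and 7557 and 6058 at 7 days. The 3 day libraries overlapped the lower end of the SB range (log2 fold change -0.59, adjusted p = 0.105), and the gene rose by 2.78 from 3 to 7 days (adjusted p = 2.74e-05). With the replicate number as a block, the 3 day difference of LTBP3 passed the threshold (adjusted p = 0.00925). It also passed without SB library 1 (-1.11, adjusted p = 0.00175) and without TGFβ 3 d library 2 (-0.80, adjusted p = 0.0464), and was -0.08 without SB library 2. NRROS, a milieu molecule that tethers latent TGFβ to the cell surface, fell by 1.22 at 3 days and by 1.32 at 7 days.

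**Figure D4:**
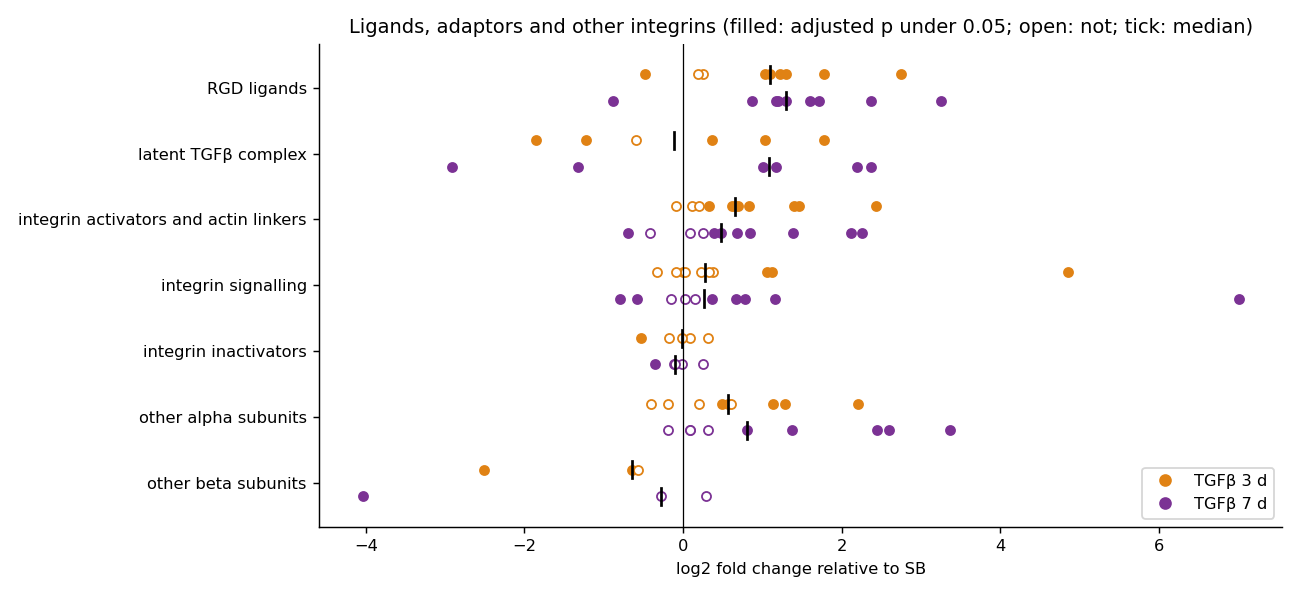
Log2 fold changes relative to SB (horizontal axis) of each tested gene of 7 lists, after 3 days (orange) and 7 days (purple) of TGFβ. Filled points passed an adjusted p of 0.05, open points did not, and ticks are list medians. The RGD ligands lie mostly to the right of 0 with medians of 1.10 and 1.30, and the integrin inactivators lie near 0.

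Inside the cell, the genes that switch integrins on and tie them to actin were mostly higher. Of 11 tested, 8 rose at 3 days and 3 did not pass the test, and 7 rose and 1 fell at 7 days, with medians of 0.66 and 0.48. From 3 to 7 days 1 rose and 3 fell. The shares called were 72.7%, 72.7% and 36.4%, the last of them near the 33.2% of all genes, where the others stood against 29.0% and 54.5%. FERMT1, the epithelial kindlin that binds β tails, had 2924 and 2407 normalized counts in SB, 14375 and 14168 at 3 days and 11343 and 11740 at 7 days. It rose by 2.43 at 3 days (adjusted p = 6.82e-09) and 2.12 at 7 days, and its later drop of 0.31 (adjusted p = 0.0296) was not past the threshold when any 1 of the 4 TGFβ libraries was left out. TLN2, a talin gene, had 432 and 348 in SB, 1013 and 1119 at 3 days and 1910 and 1793 at 7 days, and rose by 1.45 and 2.25. LIMS1, the PINCH adaptor that links the integrin-linked kinase to other focal adhesion proteins, rose by 1.40 and 1.39. PARVA, which encodes α-parvin of the same complex, rose by 0.61 and 0.84.

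Of 10 genes of integrin signalling, 3 rose at 3 days and 7 did not pass the test, and at 7 days 5 rose and 2 fell. Between 7 and 3 days 3 rose and 1 fell. The share called at 3 days, 30.0%, was near the 29.0% of all genes, and at the later comparisons 7 of 10 and 4 of 10 were called against 54.5% and 33.2%. TNS1, a tensin that joins β tails to actin in mature fibrillar adhesions, had 19 and 13 normalized counts in SB, 438 and 528 at 3 days and 2316 and 1986 at 7 days. It rose by 4.85 and by 7.00 on the log2 scale, the largest change in any list here, with no overlap between groups. PXN, the paxillin scaffold, rose by 1.12 and 1.16, and TNS3 by 1.05 and 0.78. CAV1, caveolin-1, fell by 0.79 at 7 days (adjusted p = 0.00385), with 8986 and 5109 in SB, 9268 and 8335 at 3 days and 3769 and 4049 at 7 days. Its 2 SB libraries were far apart, and the 7 day value was -0.39 without SB library 1 and -1.20 without SB library 2. At 3 days CAV1 was not called (0.38, adjusted p = 0.162), but it passed with the replicate number as a block (adjusted p = 0.0406) and without SB library 1 (0.78, adjusted p = 0.000432). Its 7 day call did not hold with every gene kept (adjusted p = 0.0658) or with the trend off (adjusted p = 0.0539).

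The 5 inactivators changed little. At 3 days 1 fell (DOK1, by 0.53) and at 7 days 1 fell (ITGB1BP1, by 0.35), and between 7 and 3 days 1 rose (NISCH, by 0.43) and 1 fell (ITGB1BP1, by 0.44), against 29.0%, 54.5% and 33.2% of all genes called. None of these calls was made with every gene kept or with limma's trend off, and the medians of the list were -0.02 at 3 days and -0.10 at 7 days.

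Integrin subunits outside the set of members, ITGA2B included but too low to test, served as the closest comparison. Of 15 other α subunits 9 could be tested, and 5 of them rose at 3 days and 5 at 7 days, with medians of 0.57 and 0.81. That is 55.6% of them each time, against 29.0% of all genes at 3 days and a nearly equal 54.5% at 7 days. From 3 to 7 days 4 rose and 2 fell, with a median of 0.50. That is 66.7% of them, against 57.1% of the tested members and 33.2% of all genes. ITGA10, a collagen receptor subunit that pairs with β1, had 694 and 423 normalized counts in SB, 2372 and 2641 at 3 days and 5582 and 5602 at 7 days, and rose by 2.21 and 3.37. ITGA3, a laminin receptor subunit, rose by 0.57 and 1.37, and ITGA11, a collagen receptor subunit usual in fibroblasts, had 46 and 39, 51 and 82, and 238 and 230, with a rise of 2.44 at 7 days. ITGAX, a leukocyte subunit, had 30 and 87, 98 and 132, and 318 and 310, and rose by 2.59 at 7 days. Of the 3 other β subunits, 2 (ITGB2 and ITGB4) fell at 3 days and 1 (ITGB2) at 7 days, against 14.0% and 26.9% of all genes. ITGB2 was low throughout, with 66 and 63 in SB, 10 and 11 at 3 days and 1 and 7 at 7 days. With every gene kept, 0 of these 3 β subunits were called at 3 days. ITGB4, the hemidesmosome subunit, fell by 0.64 at 3 days (adjusted p = 0.0100) and rose by 0.93 from 3 to 7 days (adjusted p = 0.00134), with 1351 and 1506 in SB, 756 and 1107 at 3 days and 1884 and 1610 at 7 days. The fall of ITGB4 was lost with every gene kept (adjusted p = 0.0936), with the trend off (0.0824), without SB library 2 (0.0730) or without TGFβ 3 d library 1 (0.101).

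Genes whose course over the 6 libraries was most like that of each member were found by Euclidean distance between log2(normalized count + 1) profiles centred on the SB mean, among 11382 genes with a mean of 100 or more. The nearest to ITGA5 was PDE2A (distance 0.148). LIMS1 (0.171), CCDC50 (0.175) and RASA1 (0.210) were nearest to ITGB1, so the PINCH gene of the adaptor list was also the nearest of all to the common β subunit. ITGB3 was followed by C14orf132 (0.489), SIRPA (0.513) and TCF7 (0.546). LTBP2, a matrix protein of the latent TGFβ binding protein family, was nearest to ITGB6 (0.741), with 242 and 261 normalized counts in SB, 7042 and 8575 at 3 days and 16149 and 14884 at 7 days, ahead of PCDH1 (1.12) and IL11 (1.13). The dip of ITGB8 at 3 days was shared most by SLC2A12 (0.767), with 649 and 1132 in SB, 185 and 156 at 3 days and 667 and 787 at 7 days, and then at about 1.5 by BCAM (1.47) and GUCY1A2 (1.53). These distances rest on 6 libraries from the same culture system and are a description.

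**Figure D5:**
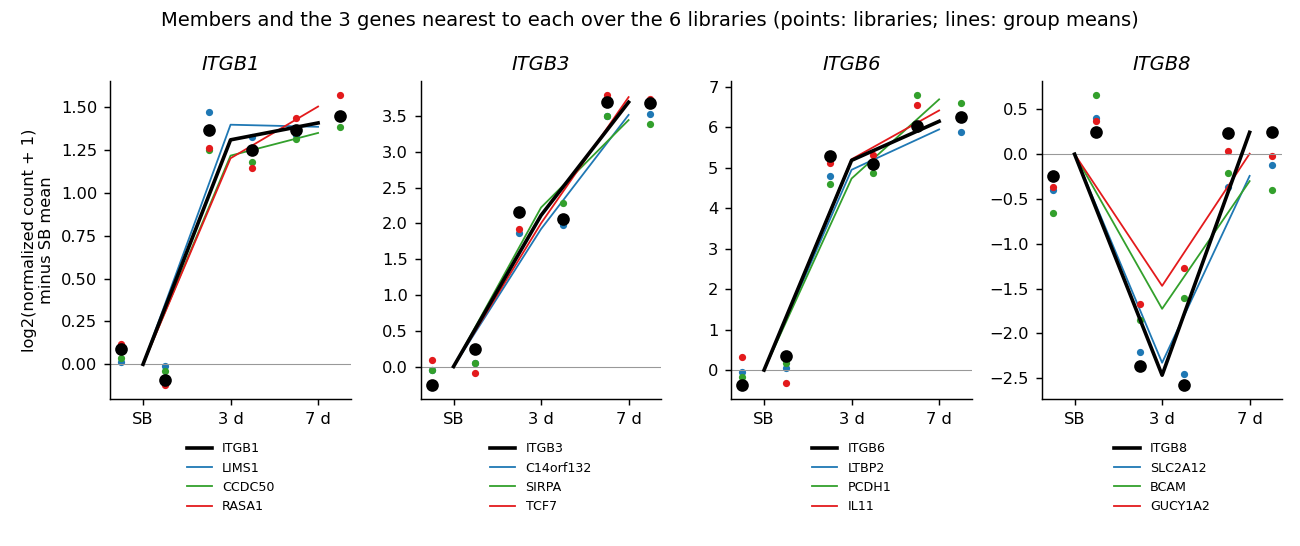
Log2(normalized count + 1) minus the SB mean of each gene (vertical axis) in the SB, 3 d and 7 d groups, for 4 of the integrin genes (black) and the 3 genes nearest to each (colours). Points are libraries and lines join group means. ITGB8 and its neighbours dip at 3 days, whereas ITGB1, ITGB3 and ITGB6 stay above SB at both times.

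Facts of the libraries as a whole bear on these values. The totals lay between 34306283 and 36340734 normalized counts. SMAD7 and SKIL, direct targets of TGFβ signalling, rose at both times, SMAD7 by 3.17 and 3.07. The lung epithelial markers were all present (7 of 7, summed 89134 to 115315 in every library), but 4 of them fell at both times: CDH1, which encodes E-cadherin, had 371 and 635 in SB and at most 28 in any TGFβ library, and EPCAM, NKX2-1 and KRT18 fell by 1.62, 1.73 and 0.56 at 7 days. KRT7 rose at both times, by 1.06 at 7 days, and KRT8 and KRT19 were not called in any comparison. The leukocyte markers summed to 32 and 82 in SB and to between 6 and 12 in the TGFβ libraries (1 of 4 with a mean of at least 10, and PTPRC at 4 or fewer), the endothelial markers to 153 and 281 in SB and between 88 and 128 in the TGFβ libraries, and the platelet markers to between 33 and 73 (3 of 4 listed). These sums were highest in SB, where ITGB3, ITGB6 and ITGA5 were lowest, and their part in the results was not tested. The library kit did not mark strand. In GENCODE, exons of ITGB3 share 2266 bases with a same-strand protein-coding readthrough gene and exons of ITGB6 share 966 bases with a same-strand non-coding gene, and exons of ITGAV, ITGA5, ITGB1 and ITGB8 share between 48 and 401 bases with antisense genes. None of these partners was listed in the table under its own name, and reads from them cannot be told apart from those of the integrin gene in these overlaps.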

How the data were processed

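Polyadenylated RNA of H2087-LCC cells was sequenced by the authors as read pairs (TruSeq v2 libraries), checked with FastQC 0.11.5, mapped to hg19 with STAR, assigned to genes with HTSeq 0.6.1p1 at default settings, and normalized by library size, with DESeq2 3.4 named for their own tests. The annotation release was not given in the sources used here. The deposited values are a score, normalized counts rounded to whole numbers for 21293 genes in 6 libraries, so count models were not applied. The exact depth of each library before normalization is unknown. The 2 libraries of a group limit the precision.

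Values were analyzed as log2(value + 1) for 14395 genes (mean of 10 or more), with limma 3.58.1 in R 4.3.3 (1 fit of all 6 libraries, group as the only term, trend in the prior variance, Benjamini-Hochberg over all genes tested, threshold 0.05), a procedure tested on simulated data. All genes and lists were chosen with earlier results of these data known, so no list was adjusted or tested by itself. Named were the 8 members, ITGA2B, up to 4 genes per list with the largest change among those called with a mean of at least 100, TGFβ target genes, and the 3 genes nearest in profile to each member with a called log2 fold change of at least 1, apart from genes not reported here. Lengths, exons and coding sequences came from GENCODE v44 on GRCh37 (MANE Select transcripts), and promoter windows from RefSeq. Figures were drawn with Python 3.11.15, pandas 2.3.3 and matplotlib 3.10.9. Alternatives were pseudocounts of 0.5 and 5, no filter, a mean of at least 50, equal totals, median-of-ratios and upper quartile scaling, no trend, only the 4 libraries compared, a replicate block, and each library left out.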

Additional observations from a re-analysis of the deposited data

Results flagged for a closer look

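For 4 of the 7 integrin genes tested, the difference from SB was not the same at 7 and 3 days. With shared SB libraries, the test of this is the comparison of 7 with 3 days, in which 33.2% of all genes tested were called. It does not separate a longer TGFβ treatment from a longer time in culture. The difference (7 days minus 3 days, log2 scale, n = 2 against 2, limma) was 2.71 for ITGB8 (adjusted p = 2.32e-06), which fell at 3 days and was not called at 7 days. It was 1.58 for ITGB3 (adjusted p = 2.56e-05), 0.96 for ITGB6 (adjusted p = 0.00577) and 0.37 for ITGA5 (adjusted p = 0.00911), which were above SB at both times. The values for ITGB6 and ITGA5 did not stay past the threshold in each alternative, as given below. Groups of 2 libraries are too small for a search for libraries that stand apart.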

How the results depend on the processing

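Of 294 alternative values of the members' log2 fold changes, 283 kept their direction and side of the threshold, 6 were no longer past it, 1 passed it and 4 changed sign. The members called at 3 and 7 days against SB stayed at 6 and at 5 to 6. Between 7 and 3 days the 4 called became 2 with no filter on low values and 3 to 4 with 1 library left out. ITGB5 at 3 days turned to -0.0260 with equal totals and ranged from -0.0406 to 0.10 with 1 library left out, and ITGB8 at 7 days from -1.58e-06 to 0.49, the last past the threshold. Other named genes changed sign in 11 of 1092 values, none past the threshold after the change. With 1 library left out, CAV1 ranged from -0.0320 to 0.783 at 3 days, ITGB1BP1 from -0.0617 to 0.242, NISCH from -0.381 to 0.0192 and, at 7 days, DOK1 from -0.316 to 0.0935. Between 7 and 3 days NRROS ranged from -0.333 to 0.121, LIMS1 from -0.0853 to 0.0610 (0.000561 with upper quartile scaling) and PXN from -0.0520 to 0.114. The summed share of ITGB3, ITGB5, ITGB6 and ITGB8 among the 5 β subunits was 35.1%, 19.5% and 20.3% in SB, 3 days and 7 days (34.1 to 36.0%, 18.3 to 20.8% and 19.4 to 21.3% with 1 library). It was 39.8%, 22.9% and 24.8% with no length and 59.0%, 39.8% and 41.9% with the length of all annotated exons, chosen after seeing the data; SB was highest each way. Genes called at 3 days numbered 4170, but 2609 without TGFβ 3 d library 1. Between 7 and 3 days there were 4775, but 3042 with no filter, 3122 with no trend and 2314 to 2810 without TGFβ 3 d library 1 or either 7 day library. The study states raw reads per sample only as a range. The exact depth of each library is therefore unknown, which limits what can be said of ITGA8 and of ITGB6 in SB.

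With the replicate number as a block, 6, 5 and 4 members were called in the 3 comparisons, as without it. Same-numbered libraries did not deviate together in every pair (correlations 0.208, -0.130 and -0.647 over 11389 genes), so the numbers were not taken as pairs. With the numbers crossed, chosen after seeing the data, 8230 genes (5 members) were called at 7 days against SB and 8875 (7 members) between 7 and 3 days, against 7259 and 4007 with the numbered pairs.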

Other observations

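Among the α subunits that pair with β1 but bind no RGD, ITGA2 and ITGA6 were highest at 3 days, and were chosen for mention after their values were seen. ITGA2, a collagen receptor subunit, had 13880 and 15080 normalized counts in SB, 20374 and 20164 at 3 days and 12440 and 12954 at 7 days. It rose by 0.49 on the log2 scale at 3 days (limma adjusted p = 0.000647) and fell by 0.68 from 3 to 7 days (adjusted p = 0.000122). ITGA6, a laminin receptor subunit that also pairs with β4, had 2943 and 2545 in SB, 6760 and 6603 at 3 days and 4727 and 4847 at 7 days. It rose by 1.29 at 3 days (adjusted p = 8.39e-07) and fell by 0.48 afterwards (adjusted p = 0.00235), remaining above SB. The kindlin gene FERMT2 was highest at 3 days too, with 3602 and 2894, 6008 and 5518, and 3695 and 4006.

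MFGE8, an RGD ligand known from the clearance of dying cells, was late. It had 4122 and 4675 normalized counts in SB, 4485 and 5582 at 3 days and 11669 and 10025 at 7 days, and rose by 1.11 from 3 to 7 days (adjusted p = 6.20e-05). At 3 days its difference from SB was 0.19, with an interval of -0.07 to 0.44 (adjusted p = 0.255).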
